A study of Mus musculus with 10 samples.

Results

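The genes described here are 10 genes of the ovarian side of mouse sex determination, measured in cultured fetal testes. They were chosen by symbol (Wnt4, Rspo1, Lgr5, Axin2, Lef1, Foxl2, Runx1, Irx3, Irx5 and Bmp2) and make up 10 of the 24470 gene entries counted. Pairs of male gonads with the mesonephros attached were taken from C57BL/6 mouse embryos at E12.5. Of the pair from each of 5 embryos, 1 gonad received 75 µM GPI (CP 316819, an inhibitor of glycogen phosphorylase) and the contralateral gonad the vehicle, DMSO, during a culture of 48 h with medium renewed every 24 h. The mesonephros was dissected away before RNA was extracted, so each of the 10 libraries holds RNA of every cell type of 1 cultured testis. Library totals ran from 10203679 to 15590223 counts with vehicle (median 11114376) and from 11025409 to 15635322 with GPI (median 11691690).

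In the fetal ovary, RSPO1 and WNT4 signal to supporting cells through the canonical WNT pathway: R-spondins bind LGR receptors and thereby keep Frizzled receptors at the membrane, WNT ligands engage Frizzled and LRP proteins, and stabilized β-catenin joins TCF/LEF factors at target genes. Pre-granulosa cells, the supporting cells of the ovary, express the transcription factors FOXL2, RUNX1, IRX3 and IRX5. In the testis, SOX9 and FGF9 oppose the WNT branch, and Sertoli cells take the place of pre-granulosa cells.

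Wnt4, Lef1 and Runx1 were lower in GPI-treated testes than in vehicle-treated testes, and Bmp2 was higher. Rspo1, Lgr5, Axin2 and Foxl2 did not pass the test, and Irx3 and Irx5 were set aside for low counts. Differences were tested by edgeR's quasi-likelihood test on the counts of 13941 genes, with the mouse as a block and Benjamini-Hochberg adjustment over all tested genes, and a gene was called at an adjusted p under 0.05. Of the 8 genes of the set that were tested, 3 were called lower, against 11.9% of all tested genes, and 1 was called higher, against 11.1% of all tested genes. The values of the 5 GPI-treated testes lay wholly below those of the 5 vehicle-treated testes in the same 3 genes, while 16.1% of all tested genes had ranges that did not overlap in either direction. The median log2 fold change was -0.34 over the 8 genes and 0.02 over all tested genes. Levels below are normalized counts, that is, counts scaled to the mean effective library size after TMM scaling; values are listed in the order of mice M1 to M5.

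Promoter windows of the 3 genes called lower are shown because these genes moved in the same direction. Of the 4 Lef1 windows 2 are printed, and of the 2 Runx1 windows 1. RefSeq windows (GRCm38.p6, 250 bases before to 50 bases after a start site, 300 bases each) were found for 7 of the 10 genes, 11 windows in all; Lgr5, Irx5 and Bmp2 had no entry. They were searched on both strands for CTTTGA, the core of TCF/LEF sites, which reads TCAAAG on the opposite strand. Of all 32851 windows, 16% held it, and of the 11 windows of the set, 1 did. That window belongs to a start site inside Lef1, in intron 3 of a Lef1 transcript of 10 exons, and holds 2 matches, which begin at -180 and -120 from the start site. In the sequences, each written 5′ to 3′ on the strand of the gene, capitals mark the matches; the other 3 windows printed have none, which says only that these letters are not in them. Their start sites coincide with the 5′ ends of the gene entries counted.
Lef1, inner start site, chr3:131156044-131156343, plus strand: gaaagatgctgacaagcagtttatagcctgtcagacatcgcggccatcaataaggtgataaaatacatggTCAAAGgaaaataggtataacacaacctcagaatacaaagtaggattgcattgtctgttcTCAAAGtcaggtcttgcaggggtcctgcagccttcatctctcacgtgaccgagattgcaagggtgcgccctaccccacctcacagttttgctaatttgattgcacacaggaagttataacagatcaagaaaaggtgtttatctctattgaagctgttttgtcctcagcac
Lef1, outermost start site, chr3:131110047-131110346, plus strand: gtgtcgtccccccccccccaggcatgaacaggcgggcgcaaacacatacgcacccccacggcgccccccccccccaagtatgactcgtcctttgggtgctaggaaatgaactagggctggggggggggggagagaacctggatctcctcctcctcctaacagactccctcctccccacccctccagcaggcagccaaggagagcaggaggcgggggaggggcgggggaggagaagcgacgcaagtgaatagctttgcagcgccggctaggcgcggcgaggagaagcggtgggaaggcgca
Wnt4, chr4:137277385-137277684, plus strand: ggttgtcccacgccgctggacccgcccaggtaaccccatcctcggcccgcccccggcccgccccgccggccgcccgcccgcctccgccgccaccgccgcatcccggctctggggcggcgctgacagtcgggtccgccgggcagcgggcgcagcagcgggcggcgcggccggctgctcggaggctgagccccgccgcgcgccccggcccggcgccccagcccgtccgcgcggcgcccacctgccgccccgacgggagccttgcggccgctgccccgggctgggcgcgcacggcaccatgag
Runx1, outer start site, chr16:92826025-92826324, minus strand: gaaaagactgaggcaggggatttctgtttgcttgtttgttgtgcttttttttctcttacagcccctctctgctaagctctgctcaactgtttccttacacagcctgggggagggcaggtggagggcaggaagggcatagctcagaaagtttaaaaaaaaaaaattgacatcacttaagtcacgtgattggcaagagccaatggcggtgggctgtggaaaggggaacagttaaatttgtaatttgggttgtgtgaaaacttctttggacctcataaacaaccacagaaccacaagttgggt
The base composition of these windows differed widely, with G and C making up 84.3% of the Wnt4 window, 67.3% of the outermost Lef1 window, 45.0% of the outer Runx1 window and 43.7% of the inner Lef1 window, beside a median of 52.7% over all windows. Counts were made per gene, so transcripts from the inner and outer start sites of Lef1 and Runx1 cannot be told apart in these data.

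Wnt4 (Entrez Gene 22417, chr4:137277635-137299501 in mm10) encodes the secreted ligand that carries ovarian WNT signaling and restrains testis development. Its levels were 1257, 1159.9, 1031, 952 and 822 normalized counts in vehicle-treated testes and 790.2, 593, 581, 428 and 667 in GPI-treated testes. The GPI-treated testis was the lower of the pair in 5 of 5 mice, and the highest GPI value, that of mouse M1, lay just under the lowest vehicle value, that of mouse M5. The log2 fold change was -0.78 (standard error 0.11, 95% confidence interval -1.02 to -0.54, adjusted p = 0.000157, edgeR's quasi-likelihood test, Benjamini-Hochberg adjusted), which left 58.2% of the vehicle level. Within a mouse the log2 ratio ran from -1.15 in M4 to -0.30 in M5. In bulk samples, fewer cells of a type and less RNA per cell cannot be told apart.

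Rspo1 (Entrez Gene 192199, chr4:124986430-125009099) encodes the R-spondin that amplifies WNT signaling in the ovary. Its levels were 331, 426, 527, 394 and 396 normalized counts with vehicle and 408.5, 391, 389.9, 302 and 390.1 with GPI. All 5 GPI values except that of M4 fell inside the vehicle range, and the testis of M1 was higher with GPI while the other 4 pairs were lower. Rspo1 had a log2 fold change of -0.13 (95% confidence interval -0.39 to 0.12, adjusted p = 0.47, edgeR).

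Lgr5 (Entrez Gene 14160, chr10:115450314-115587780) encodes a receptor of R-spondins and is itself a WNT target in many tissues. Its levels were 192, 118, 110.5, 115.5 and 104 normalized counts with vehicle and 136.5, 199, 213, 115 and 122 with GPI. The groups overlapped and the pairs went both ways, higher with GPI in 3 of 5 mice, with the highest vehicle value in M1 and the highest GPI values in M2 and M3. Lgr5 had a log2 fold change of 0.29 (95% confidence interval -0.14 to 0.72, adjusted p = 0.348, edgeR). Lgr5 overlaps A930009A15Rik on the opposite strand, and with counting blind to strand, reads of these genes cannot be told apart.

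Axin2 (Entrez Gene 12006, chr11:108920349-108950783), a negative regulator of β-catenin, is among the most general transcriptional readouts of canonical WNT signaling. Its levels were 456, 313, 414, 319.7 and 376 normalized counts with vehicle and 402, 384, 363, 267 and 372 with GPI. Only M4 with GPI fell outside the vehicle range, and M2 was the single mouse with the higher value under GPI. Axin2 had a log2 fold change of -0.07 (95% confidence interval -0.31 to 0.17, adjusted p = 0.71, edgeR).

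Lef1 (Entrez Gene 16842, chr3:131110297-131224357) encodes a TCF/LEF factor that binds β-catenin and is also a WNT target. Its levels were 136, 143, 142, 166 and 93.7 normalized counts with vehicle and 62.7, 79.5, 52.3, 65.2 and 76.3 with GPI. All GPI values lay below all vehicle values, with the narrowest pair in M5, whose vehicle-treated testis was the lowest of its group. The log2 fold change was -1.01 (standard error 0.20, 95% confidence interval -1.43 to -0.58, adjusted p = 0.00196, edgeR's quasi-likelihood test, Benjamini-Hochberg adjusted), or 49.8% of the vehicle level. The intervals of Lef1 and Axin2, both WNT readouts, did not overlap; the difference between them was not tested.

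**Figure D1:**
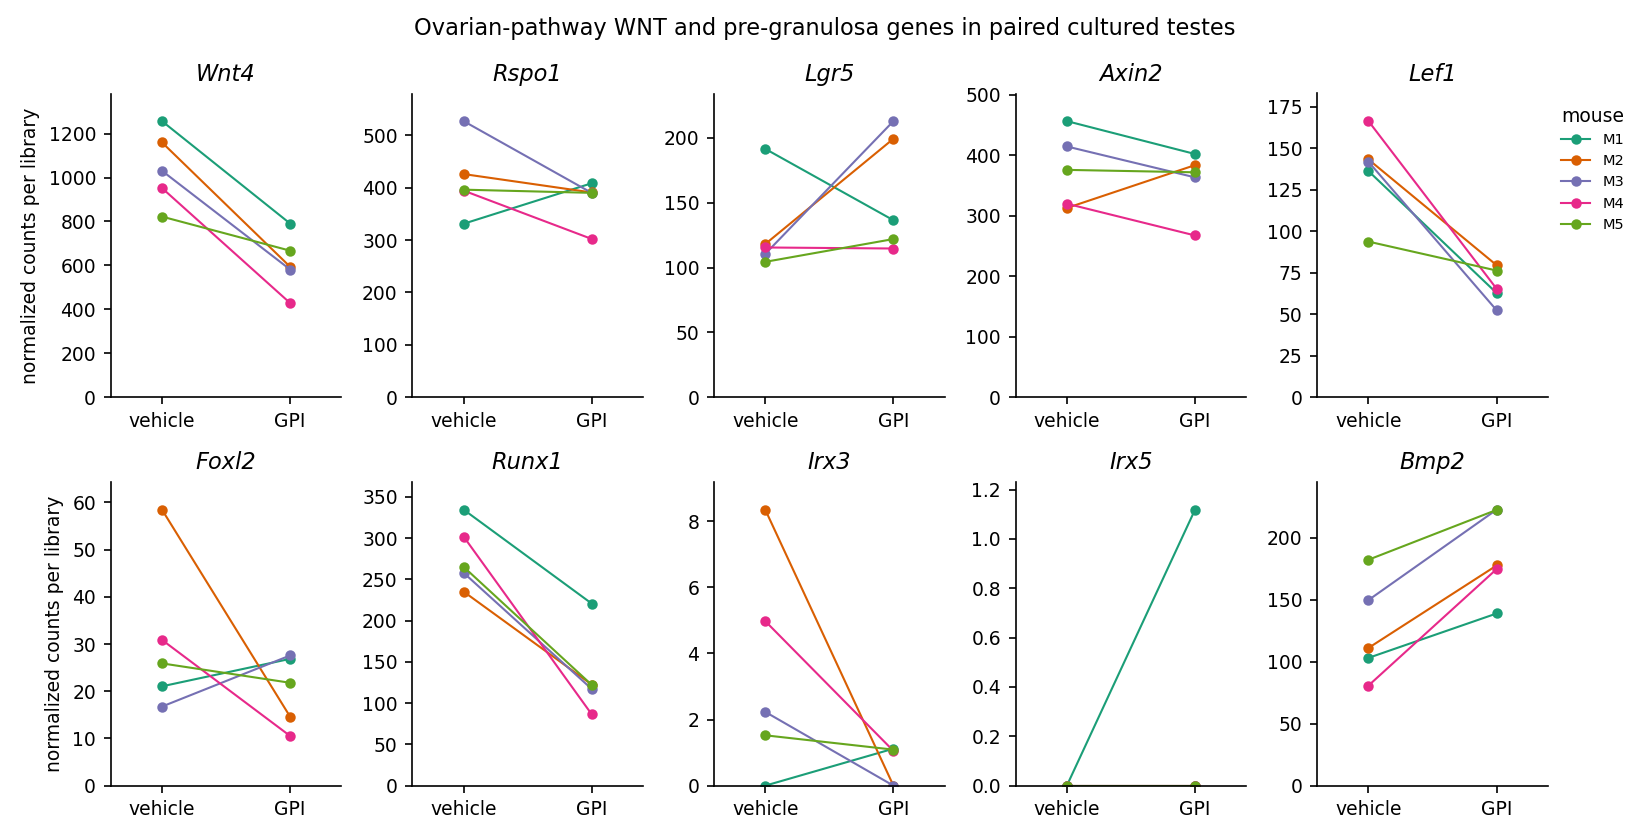
Normalized counts (vertical axes, each from 0) of the 10 genes in vehicle-treated and GPI-treated testes, with 1 point per library and a line joining the testes of 1 mouse. In Wnt4, Lef1 and Runx1 all 5 lines fall and the groups do not overlap, in Bmp2 all 5 lines rise, and Irx3 and Irx5 stay under 10 normalized counts.

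Foxl2 (Entrez Gene 26927, chr9:98955607-98958126) encodes the forkhead factor that defines pre-granulosa and granulosa cells. Its levels were 21, 58.5, 16.8, 30.9 and 25.9 normalized counts with vehicle and 26.9, 14.6, 27.6, 10.5 and 21.8 with GPI. Foxl2 was low in all 10 libraries, 1 vehicle value (M2) stood above the rest, and the pairs went both ways. Its log2 fold change of -0.54 had the widest interval of the 8 tested genes (95% confidence interval -1.48 to 0.39, adjusted p = 0.425, edgeR).

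Runx1 (Entrez Gene 12394, chr16:92601466-92826074) encodes a transcription factor that marks pre-granulosa cells and acts beside FOXL2, and that is also used by blood-forming cells. Its levels were 334, 235, 258, 302 and 265 normalized counts with vehicle and 220.5, 122, 117, 86.3 and 122 with GPI. The GPI-treated testis of M1 was far above the other 4 GPI values but still below every vehicle value. The log2 fold change was -1.11 (standard error 0.16, 95% confidence interval -1.45 to -0.76, adjusted p = 0.000186, edgeR's quasi-likelihood test, Benjamini-Hochberg adjusted), or 46.4% of the vehicle level, and the value was lower with GPI in 5 of 5 mice. Its partner subunit gene Cbfb and its paralog Runx2 were not called, with log2 fold changes of 0.15 and 0.35 (adjusted p = 0.16 and 0.367, edgeR). The paralog Runx3 was set aside for low counts, with 42 raw counts over the vehicle libraries and 10 over the GPI libraries.

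Irx3 (Entrez Gene 16373, chr8:91798511-91801654) and Irx5 (Entrez Gene 54352, chr8:92357796-92361456) encode Iroquois factors that act together in pre-granulosa cells. Irx3 had 0, 7, 2, 5 and 2 raw counts with vehicle and 1, 0, 0, 1 and 1 with GPI. The 16 vehicle counts against 3 GPI counts gave a ratio of GPI over vehicle of 0.184 after scaling (95% exact counting interval 0.0344 to 0.643), and 7 of the 16 came from M2. Irx5 had 0 counts in the 5 vehicle libraries and 1 count, in M1, with GPI; both are under the 3 counts that 59963787 vehicle counts and 63461018 GPI counts allow for a gene not detected, so no fold is given. Interval and floor cover counting error only. With every gene of at least 1 count kept, both genes were tested across mice and neither was called (adjusted p = 0.48 for Irx3 and 0.767 for Irx5, edgeR); DESeq2 did not call Irx3 either (adjusted p = 0.447) and gave Irx5 no adjusted p. The other Iroquois genes, Irx1, Irx2, Irx4 and Irx6, were also set aside for low counts, and Irx4 had 0 in all 10 libraries.

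Bmp2 (Entrez Gene 12156, chr2:133552159-133562896) encodes a secreted BMP ligand that is expressed in the fetal ovary. Its levels were 103, 111, 149.6, 80.7 and 182 normalized counts with vehicle and 139, 177.5, 222.5, 174.6 and 222 with GPI. Each GPI-treated testis was above its own vehicle-treated pair, but the groups overlapped, since the vehicle values of M3 and M5 exceeded the GPI value of M1. The log2 fold change was 0.61 (standard error 0.15, 95% confidence interval 0.28 to 0.94, adjusted p = 0.0104, edgeR's quasi-likelihood test, Benjamini-Hochberg adjusted), a 1.52-fold higher level. This call was lost without the replicate block (log2 fold change 0.57, adjusted p = 0.0574, edgeR) and without mouse M4 (0.49, adjusted p = 0.0539, edgeR); over 12 alternatives its adjusted p ran from 0.00509 to 0.0574.

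**Figure D2:**
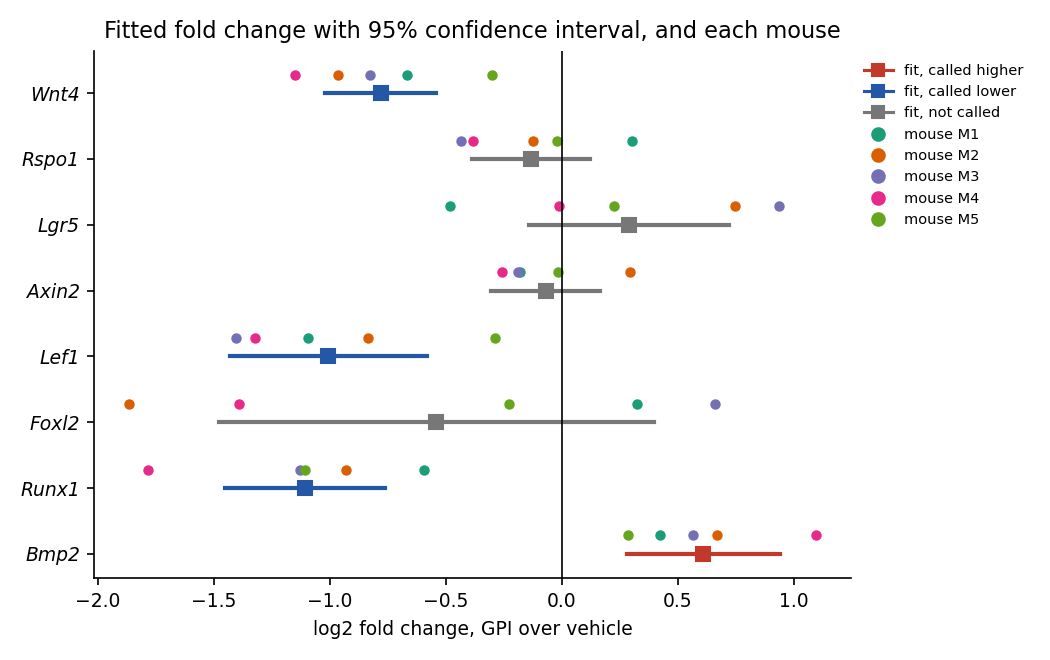
Log2 fold change of GPI over vehicle (horizontal axis) for the 8 tested genes, with squares for the fitted value, bars for its 95% confidence interval and circles for the ratio in each mouse. The intervals of Wnt4, Lef1 and Runx1 lie below 0 and that of Bmp2 above 0, while those of Rspo1, Lgr5, Axin2 and Foxl2 cross 0.

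The order of levels was compared per kilobase of the longest GENCODE M21 transcript with a RefSeq match. In vehicle-treated testes, Wnt4 came first with 249 ± 40.7 normalized counts per kilobase (SD, n = 5), followed by Rspo1 with 226 ± 39.0, and the ranges of these neighbors overlapped. Axin2 was next with 88.2 ± 14.4, below every Rspo1 value and above every Runx1 value. Runx1 (47.6 ± 6.69), Lef1 (39.1 ± 7.59), Bmp2 (35.2 ± 11.4) and Lgr5 (27.2 ± 7.62) followed in normalized counts per kilobase, and each overlapped the next. Foxl2 stood below these at 9.40 ± 5.05, and Irx3 at 1.24 ± 1.20. With GPI, Rspo1 (205 ± 23) stood above Wnt4 (146 ± 31.5), with overlapping ranges, and Bmp2 (52.6 ± 10.02) and Lgr5 (33.3 ± 9.70) stood above Runx1 (22.8 ± 8.67) and Lef1 (19.3 ± 3.14), again in normalized counts per kilobase. Every Bmp2 value with GPI exceeded every Runx1 and Lef1 value with GPI, while the ranges of Lgr5 and Runx1 overlapped.

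Beyond the set, 67 genes of the WNT pathway were followed in 4 lists (ligands, release and reception, transduction, and target genes), each gene counted once; 50 were tested, 5 were called higher and 6 lower, shares near the 11.1% and 11.9% of all tested genes, and their median log2 fold change was -0.01. None of the 6 tested ligand genes of 18 was called by edgeR, at an unadjusted p under 0.05 there were 0, limma-voom called 0, and DESeq2 called 1, Wnt3, with 24 vehicle counts and 0 GPI counts. Wnt5a, a ligand of noncanonical signaling with the most counts of them, had 2991 ± 361 normalized counts with vehicle and 2952 ± 308 with GPI (SD, n = 5; log2 fold change -0.02). Wnt1, Wnt3a and Wnt8a had 0 counts in all 10 libraries.

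Of 17 tested genes of 21 for WNT release and reception, 5 were called higher, against 11.1% of all tested genes, and 2 lower, a share no larger than the 11.9% of all tested genes (median 0.08). Fzd6 and Fzd4, the latter a Frizzled receptor of endothelial cells, were lower, with log2 fold changes of -1.87 and -1.08 (adjusted p = 1.24e-05 and 6.23e-05, edgeR), and Fzd5 and Fzd2 were higher, at 0.78 and 0.58 (adjusted p = 0.000481 and 0.00252, edgeR). Rspo3 (0.74), Fzd8 (0.52) and Fzd3 (0.28), the other genes called higher, are named after their values were seen. Without M3 the Fzd8 call was lost (adjusted p = 0.0543), without the replicate block that of Rspo3 (0.0614), and that of Fzd3 with total counts (0.062) and on leaving out M2 (0.0815), M3 (0.116), M4 (0.0902) or M5 (0.132). Lgr4, an R-spondin receptor gene, the ligase genes Znrf3 and Rnf43, whose products remove Frizzled receptors, and Wls, which carries WNT ligands to the surface, were not called, with log2 fold changes of 0.19, 0.07, -0.83 and 0.23. Of 12 alternatives, 3 called Lgr4 higher, among them the fit without M4 (adjusted p = 0.0377), and 3 called Rnf43 lower, among them the fit without M5 (0.0437).

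Downstream of the receptors, 1 of 18 tested transduction genes was called, fewer than the 11.9% of all tested genes called lower: Tcf7l1, a mostly repressive TCF factor (log2 fold change -0.54, adjusted p = 0.0104, edgeR; 0.0528 without mouse M4). Ctnnb1, the gene of β-catenin, had 11192 ± 1581 normalized counts with vehicle and 9894 ± 941 with GPI (SD, n = 5; log2 fold change -0.17, adjusted p = 0.146, edgeR; called lower without mouse M2, at -0.26 and 0.0136). The log2 fold changes of Apc, Axin1 and Tcf7l2 were 0.18, 0.12 and -0.16, and none of these was called, except Tcf7l2 with total counts (adjusted p = 0.0442). Among 12 tested target genes of 13, 3 were called lower, a larger share than the 11.9% of all tested genes but a small count. They were Ccnd1 (-1.20), Nkd2 (-1.05) and Myc (-0.30), and the list had a median of -0.36. At an unadjusted p under 0.05 (edgeR), 0 target genes were higher and 5 lower. These counts were 2 and 4 for transduction genes and 7 and 3 for release and reception, with genes on several lists counted in each. The share of all tested genes at that threshold is not given here. Tcf7, a TCF factor on the transduction and target gene lists, was not called (-0.38, adjusted p = 0.0773, edgeR). Its GPI values lay wholly below its vehicle values. The Myc call held in 8 of 12 alternatives and was lost without the replicate block (adjusted p = 0.141) and on leaving out M3 (0.0792), M4 (0.0871) or M5 (0.0789). Ccnd1 and Myc respond to many growth signals, while Nkd2 encodes a feedback inhibitor of WNT signaling. Nkd1, Sp5 and Apcdd1, which are closer to the pathway, were not called (-0.12, -0.82 and -0.82; adjusted p = 0.632, 0.197 and 0.25, edgeR), and Notum was set aside for low counts.

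Of 10 tested secreted or membrane antagonists of 14, 2 were called higher and 2 lower (median -0.02). These are larger shares than the 11.1% and 11.9% of all tested genes, but small counts. Sfrp4 rose from 23.5 ± 11.4 to 187 ± 65.6 normalized counts and Sostdc1, an antagonist of both WNT and BMP ligands, from 32.6 ± 4.30 to 128 ± 37.5 (SD, n = 5; log2 fold changes 2.99 and 1.94), while Sfrp1 and Dkk2 fell (-0.38 and -1.07).

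**Figure D3:**
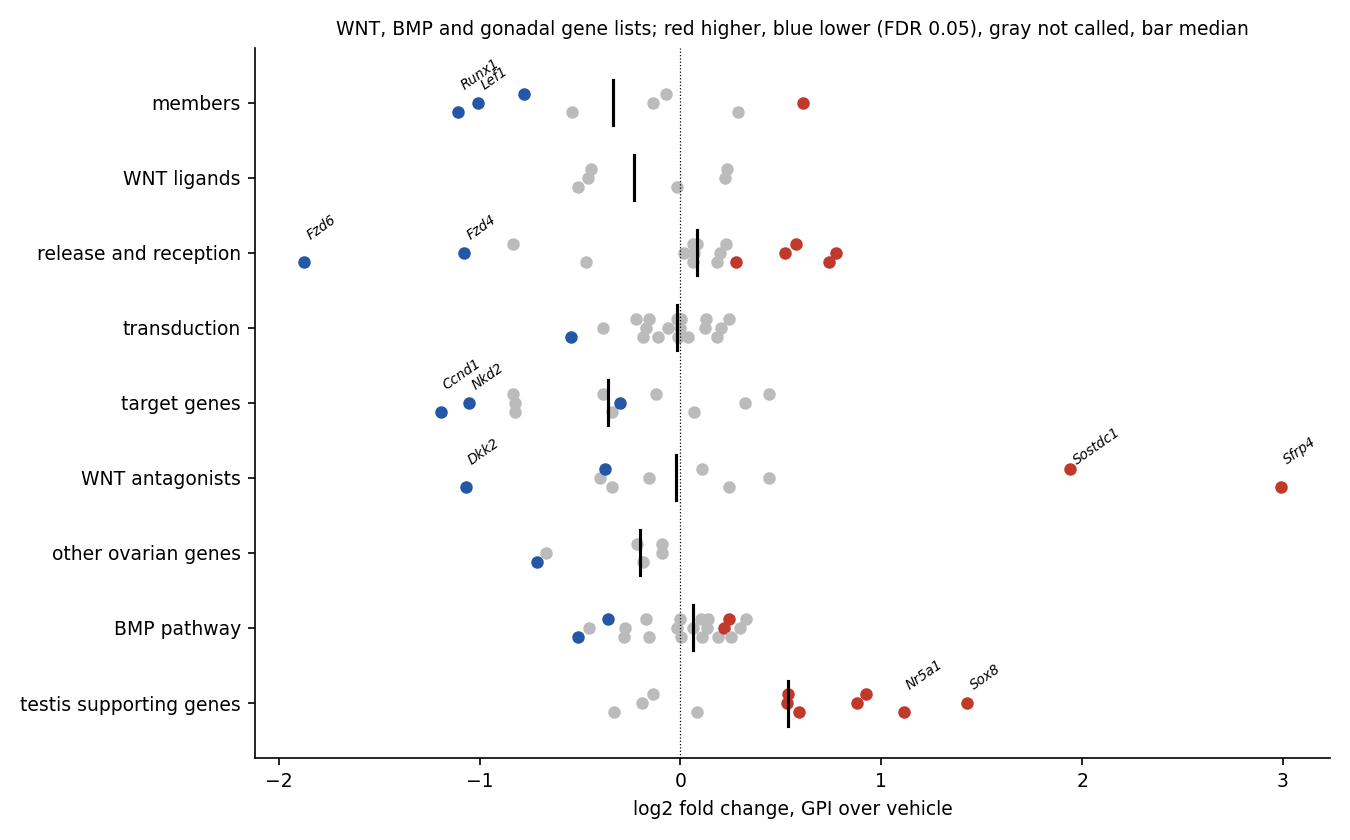
Log2 fold change of GPI over vehicle (horizontal axis) of each tested gene in the set and in 8 gene lists (rows), colored by call, with a bar at each list's median; called genes beyond 1 on either side are named. Transduction genes lie close to 0, receptors spread to both sides, and 7 of the 11 testis supporting genes are called higher.

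Of 6 tested genes of 9 on a list of other ovarian genes, 1 was called lower, a count too small to set against the 11.9% of all tested genes: Esr2, an estrogen receptor gene (log2 fold change -0.72, adjusted p = 0.0224, edgeR), and this call was lost without mouse M2 (adjusted p = 0.0819), M3 (0.0573) or M5 (0.0674). Fst, a WNT4 and FOXL2 target in the ovary, had 101 ± 17.3 normalized counts with vehicle and 89.5 ± 21 with GPI (SD, n = 5; log2 fold change -0.19), and Nr0b1, Msx2 and Cdkn1b were not called either. In the BMP pathway, 21 of 24 genes were tested, and 2 were called higher, Bmpr1a (0.24) and Acvr2a (0.22), and 2 lower, Smad5 (-0.36) and Id4 (-0.51), shares no larger than the 11.1% and 11.9% of all tested genes. Of 12 alternatives, Smad5 was called in 12, Bmpr1a in 10 (not without M3 or M5; adjusted p = 0.0833 and 0.0512), Id4 in 8 (not without the block, 0.0839, or without M1, 0.131, M3, 0.181, or M5, 0.103) and Acvr2a in 2 (limma-voom and the fit without M2). Id1, a direct target of BMP signaling, was not called (-0.17, adjusted p = 0.543, edgeR), nor were the ligand genes Bmp4 (-0.02) and Bmp7 (0.30).

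Of 11 tested genes of 12 on the testis supporting list, 7 were called higher, against 11.1% of all tested genes. The median log2 fold change was 0.53. Sox9, which drives Sertoli cell fate, rose by 0.59 (adjusted p = 0.000408, edgeR), and Nr5a1 by 1.11 (adjusted p = 1.35e-05, edgeR). Sox8 rose by 1.43, Dhh by 0.92 and Dmrt1 by 0.53 (adjusted p = 0.0393, edgeR). Gata4 (0.53) and Ptgds (0.88), the other genes called higher, are named after their values were seen. In bulk samples, the cell types in which these genes rose cannot be told apart. The 4 genes not called were Amh (0.08), Wt1 (-0.14), Cst9 (-0.19) and Fgf9 (-0.33), the last 3 named after their values were seen. The Dmrt1 call was lost in 6 of 12 alternatives: without the replicate block (adjusted p = 0.0976), with total counts (0.061) and when M2 (0.102), M3 (0.114), M4 (0.186) or M5 (0.107) was left out. The ratio of Wnt4 to Sox9 was computed after these values were seen, and reflects the higher Sox9 as well as the lower Wnt4. Per length, the Wnt4 level was 61.4% to 111% of the Sox9 level with vehicle (median 79.2%) and 19.7% to 52.1% with GPI (median 31.3%), with no overlap.

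Summed endothelial, leukocyte and germ cell markers were lower with GPI, as Wnt4, Lef1 and Runx1 were (most abundant below means the most normalized counts). All 8 endothelial genes were called lower, against 11.9% of all tested genes, with log2 fold changes from -5.18 (Flt1, named after its value was seen) to -1.70; Cdh5, the most abundant, was at -3.63, Pecam1 at -4.16 and Kdr at -2.44. Summed over the list they gave 7573, 7904, 7135.5, 8248 and 7320.1 normalized counts with vehicle and 886, 1059, 756, 588 and 776 with GPI, 10.7% of the vehicle mean. Of 7 tested leukocyte genes of 8, 6 were called lower, with Ptprc, the most abundant, at -1.85 and Csf1r at -2.22, while Adgre1 was not called (-0.26). Their sums were 857, 413, 500.3, 519.9 and 738 normalized counts with vehicle and 261, 229, 186, 118 and 109 with GPI. All 5 tested germ cell genes of 6 were lower, with Dazl, the most abundant, at -4.62 and Ddx4 at -2.72, and their sums were 984, 2058, 1245, 1729 and 649.9 normalized counts with vehicle and 129, 104, 27.6, 34.7 and 109 with GPI. No gene of these 3 lists was at 0 counts in all libraries. Within a mouse, GPI left 45.0% to 81.1% of the Wnt4 level of the paired vehicle-treated testis, 36.9% to 81.4% of Lef1 and 28.6% to 65.9% of Runx1, against 7.13% to 13.4% of the endothelial sum and 2.01% to 16.8% of the germ cell sum. In the order of mice M1 to M5, the leukocyte sum kept 30.4%, 55.6%, 37.3%, 22.7% and 14.8%. In that order, Wnt4 kept 62.9%, 51.2%, 56.4%, 45.0% and 81.1%. Lef1 kept 46.0%, 55.5%, 36.9%, 39.2% and 81.4%, and Runx1 65.9%, 52.1%, 45.4%, 28.6% and 46.0%. The leukocyte sum thus came close to all of these genes in M2 and to Lef1 in M3. It lay furthest below Wnt4 and Lef1 in M5. The part of these cell types in the lower Wnt4, Lef1, Runx1, Fzd4 and Fzd6 values was not tested.

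Lists of other somatic cells moved differently. Of 4 tested Leydig cell genes of 5, all 4 were called higher, against 11.1% of all tested genes (median 2.32), with Hsd3b1 the most abundant and Cyp17a1 at 3.90, and their sums were 1280.0, 2700.4, 3979.8, 1991 and 5303 normalized counts with vehicle and 9634, 10119, 15749, 18089 and 12928 with GPI. Of the 5 tested surface epithelium genes of 6, Upk1b, named after its value was seen, was called higher (0.68; lost without M3, adjusted p = 0.0643), and the most abundant, Upk3b, was at 0.23; the sums were 931, 918, 845, 685 and 749 normalized counts with vehicle and 1082, 897, 924, 825 and 1013 with GPI. Among interstitial genes, Pdgfra, the most abundant, was higher (0.33), Tcf21 was lower (-0.30), and Nr2f2 was not called (-0.18), except with total counts (adjusted p = 0.0446). The Tcf21 call was lost on leaving out M2 (adjusted p = 0.0586), M3 (0.0942) or M4 (0.0743). Of 8 mesonephros genes 2 were tested and neither was called, with Pax8 the most abundant; the sum was 850.4 normalized counts in the vehicle-treated testis of M1, 353, 486, 201 and 271 in the other vehicle-treated testes, and 356, 399, 266, 261 and 267 with GPI. The part of Leydig, surface epithelium, interstitial and mesonephros cells in the results for the 10 genes was not tested.

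**Figure D4:**
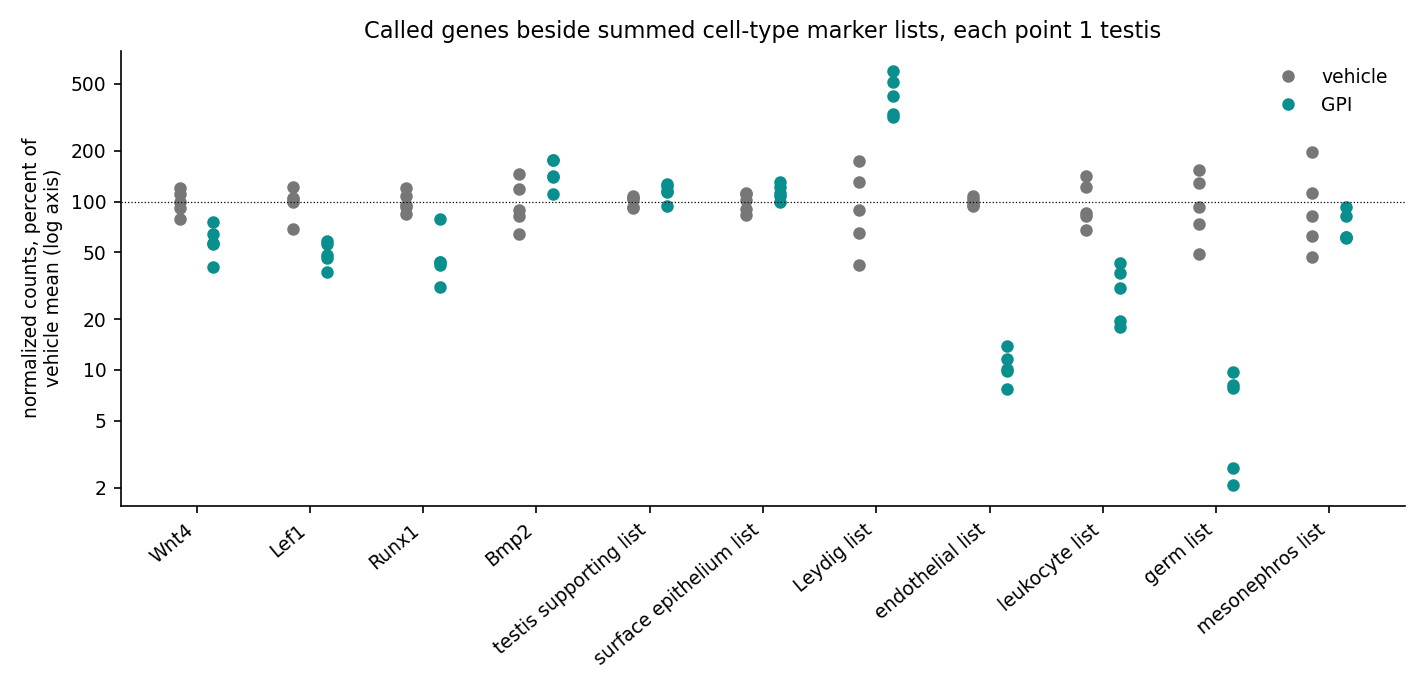
Normalized counts as a percent of the vehicle mean (vertical log axis) in each vehicle-treated and GPI-treated testis, for the 4 called genes and for the summed genes of 7 cell-type lists (horizontal axis), 1 point per testis. With GPI, endothelial and germ cell sums lie below every Wnt4, Lef1 and Runx1 value, leukocyte sums overlap them, and the Leydig sum rises above every vehicle value.

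The libraries matched their label as testes. The Y-linked genes Ddx3y, Kdm5d, Uty and Eif2s3y were expressed in all 10 libraries, with sums from 5239.7 to 5724 normalized counts with vehicle and from 5566 to 6376 with GPI, and Sox9 exceeded Foxl2 many times over per length in each. Sry, the testis-determining gene, whose expression is brief, had 2 counts in all libraries together and was set aside for low counts.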

How the data were processed

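RNA of 10 cultured testes was sequenced. Per the submitters' processing notes, read pairs were mapped to mm10 with STAR 2.5, and the authors deposited raw counts per RefSeq gene, made with featureCounts (Subread 1.5.0-p1) without regard to strand. Groups and mice were taken from the labels. Genes were filtered by filterByExpr (minimum count 10, minimum total 15), which left 13941 of 24470, scaled by TMM and fitted with mouse and treatment. Calls used an FDR of 0.05, each standard error is the size of the log2 fold change over the root of its F statistic, and ratios within a mouse used a prior count of 2. The numbers pair the samples because both testes of a number come from the same animal; deviations from the group means correlated at -0.04 to 0.155 within a mouse (mean 0.06) and -0.015 between mice. Libraries of a group differed beyond sampling noise (chi-square over its degrees of freedom 6.42 to 27.81). Errors reflect the spread between mice, since reads without molecular identifiers are not independent molecules.

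Named genes were the 10 of the set, of each list the first 4 and the 4 with the smallest p, and of each marker list the first 3, the most abundant and any at 0 in all libraries; 1 gene of the interstitial list, and with it the list's sum, is not reported here. Members and lists were chosen with earlier results of these data known. As alternatives, the fit was repeated without the replicate block, with each mouse left out in turn, with RLE size factors or library totals in place of TMM, with every gene of at least 1 count or those of at least 10 counts in all libraries, and by limma-voom and DESeq2. The edgeR procedure was also run on counts simulated with the library sizes and dispersions of these data. The simulation held no mouse effect, so it did not probe the pairing, and no result is drawn from it here. Versions were DESeq2 1.42.0, edgeR 4.0.16, limma 3.58.1 and R 4.3.3, and Python 3.11.15, numpy 2.4.6, pandas 2.3.3, scipy 1.17.1 and matplotlib 3.10.9.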

Additional observations from a re-analysis of the deposited data

Results flagged for a closer look

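In 24 groups of 5 values (vehicle, GPI and the ratio within a mouse, for each of the 8 tested genes), 4 single values stood far from the other 4 of their group by Dixon's criterion; chance flags about 1 in 20 groups. In mouse M4 with GPI, Rspo1 was the lowest of its group at 302 normalized counts and Axin2 likewise at 267.2. In mouse M1, Lgr5 was the highest of the vehicle group at 191.6 normalized counts and Runx1 the highest of the GPI group at 220.5.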

How the results depend on the processing

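Over 12 alternatives to the reported fit, Wnt4, Lef1 and Runx1 were called lower in every one, with log2 fold changes from -0.90 to -0.69, -1.18 to -0.92 and -1.26 to -0.94, so 3 genes of the set were called lower throughout. Rspo1, Lgr5, Axin2 and Foxl2 kept their sign and were called in none. The number called higher, 1 (Bmp2), was 0 without the replicate block and ran from 0 to 1 with each mouse left out; the cause was not tested. The block changed no other call in the set. Of 96 alternative values of the 8 tested genes, 94 kept direction and side of the threshold, and of 883 for 74 other named genes, 825 did, 13 values of 8 genes not called changed sign, 33 lost and 12 gained a call, and no called value reversed. Among all genes, 3198 were called (1544 higher, 1654 lower), 3108 without the replicate block, and with each mouse left out between 2311 and 3080 were called. The balance of directions depended on the scaling and the tool, with 1244 higher and 1968 lower under total counts (8.92% and 14.1% of tested genes, in place of 11.1% and 11.9%) and 1434 and 1770 under DESeq2 (8.56% and 10.6%). Genes called higher ran up to 1430 with a mouse left out, and fell to 969 without mouse M3 (6.93%) and 1024 without M4 (7.34%). WNT pathway genes called lower numbered 6, and 9 with DESeq2. BMP pathway genes called higher numbered 2, and 1 with DESeq2, RLE size factors, total counts or at least 10 counts in every library (0 to 4 with each mouse left out); those called lower numbered 2, 1 without the replicate block and 4 with total counts (1 to 3 with each mouse left out). Testis supporting genes called higher numbered 7, and 6 in the 6 alternatives that lost Dmrt1. With total counts 1 gene of that list, Wt1, was called lower, and with at least 10 counts in every library, where fewer genes were tested, 3 leukocyte genes in place of 6. Irx3 and Irx5, set aside for low counts, were not called with every gene of at least 1 count kept or by DESeq2.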
